A study of Saccharomyces cerevisiae with 12 samples.

Results

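The nuclear genes of the mitochondrial respiratory chain and ATP synthase were followed in budding yeast (Saccharomyces cerevisiae) with and without the SUMO protease Ulp2, early and late in laboratory passaging. The set holds 41 of the 7126 genes in the deposited table, taken by systematic name: 4 genes of succinate dehydrogenase, 9 of the cytochrome bc1 complex, 2 of cytochrome c, 9 of cytochrome c oxidase, 13 of ATP synthase, its inhibitor gene INH1, and the NADH dehydrogenase genes NDI1, NDE1 and NDE2. The rule uses no measured value, though the set was picked with earlier results of these data known. All 41 genes were among the 6572 that passed the expression filter.

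RNA was sequenced from 4 groups of 3 libraries: ulp2 null cells at 500 generations (ulp2 500G), ulp2 null cells at 50 generations (ulp2 50G), WT cells at 500 generations (WT 500G) and WT cells at 50 generations (WT 50G). All groups descend from strain MHY1379, a MATa strain with mutant alleles of HIS3, LEU2, LYS2, TRP1 and URA3 in which a HIS3 marker replaces the chromosomal ULP2 gene. WT cells carried ULP2 on the plasmid YCplac33, and ulp2 null cells carried the plasmid without it, so that neither strain had ULP2 at its own locus. Cultures were passaged by daily dilution of saturated cultures into YPD, a rich glucose medium, and by the methods cells for RNA were taken in mid-exponential growth. No source used here says whether the 3 replicates of a group were separately passaged lines, so the p-values measure the spread between these libraries, which may be technical, and a change particular to one passaged line cannot be told apart from an effect of passage or strain. By the study's account, ulp2 null cells passaged for 500 generations had acquired missense mutations in UBC9, the SUMO-conjugating enzyme gene, and in IFM1. IFM1 encodes a mitochondrial translation initiation factor. WT cells passaged as long had a missense mutation in BUB1, a spindle checkpoint gene. The part of these mutations in the values was not tested.

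The respiratory chain of yeast passes electrons from NADH and succinate through ubiquinone, the cytochrome bc1 complex and cytochrome c to cytochrome c oxidase, which reduces oxygen. The protons moved on the way drive ATP synthase. Yeast has no proton-pumping NADH dehydrogenase and uses single-subunit enzymes in its place, one facing the matrix and a pair facing the cytosol. Most subunits are encoded in the nucleus and a few core subunits in mitochondrial DNA. Nuclear genes of the chain are repressed by glucose and activated by the Hap2/3/4/5 complex, which binds CCAAT elements, and a few have a second form that is favoured when oxygen or heme is scarce, among them CYC7 for CYC1 and COX5B for COX5A.

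Expression was given as FPKM, a fragment count scaled by transcript length and by library size, and tested as log2(FPKM + 1) with limma over all 6572 genes at an adjusted p of 0.05. ULP2 was at 0.0543, 0.412 and 0.995 FPKM in ulp2 500G and at 0.0926, 0 and 0.118 FPKM in ulp2 50G libraries, against 162, 174 and 202 FPKM in WT 500G and 206, 217 and 207 FPKM in WT 50G libraries, as the labels require. The libraries' FPKM values summed to between 1083961 and 1198357 at 50 generations and to between 1365930 and 1539386 at 500 generations. All 54 entries of mitochondrial DNA, the COX1, COX2, COX3, COB, ATP6, ATP8 and OLI1 genes of these same complexes included, were listed at 0 in every library, so the mitochondrially encoded subunits could not be followed. Of 8 genes that mark cells past glucose exhaustion (FBP1, PCK1, ICL1, MLS1, ADH2, JEN1, ACS1 and CAT8), none was at 0 in any library. They were well expressed in every group, though the methods place the harvest in mid-exponential growth. PCK1 group means ran from 3626 FPKM in ulp2 50G to 11065 FPKM in WT 500G libraries, and those of CAT8 from 53.4 to 73.6 FPKM. The median over all genes was at most 41.9 FPKM in any library. The summed FPKM of the 8 markers was 32262 to 34569 in ulp2 500G and 9595 to 10245 in ulp2 50G libraries, against 38223 to 41248 in WT 500G and 20695 to 21158 in WT 50G libraries. These sums were lowest in ulp2 50G libraries, where most respiratory genes were low too. Between WT passages the marker sums rose, the members' median log2 change was 0.32, and the summed FPKM of whole libraries rose too. The set's mean share, which is relative to that larger total, was 6.66% in WT 500G and 6.76% in WT 50G libraries. The markers themselves differed. ADH2 averaged 12594 FPKM in WT 500G and 2120 FPKM in WT 50G libraries, and MLS1 2319.5 and 2182 FPKM. The part of these markers in the results was not tested.

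In ulp2 50G cells the respiratory genes were low as a group. Compared with WT 50G cells, 30 of the 41 were called lower (background 18.1% of all tested genes) and 2 were called higher (background 18.7%). Both of the higher genes, CYC7 and COX5B, encode the second, low-oxygen form of a subunit. The median log2 change of the 41 genes was -0.61, against -0.02 over all tested genes, and 37 of them had a change below 0. The set made up 4.41% ± 0.06 of the summed FPKM in ulp2 50G libraries (SD, n = 3) and 6.76% ± 0.24 in WT 50G libraries (SD, n = 3). For 35 members all 3 ulp2 50G libraries were below each of the other 9 libraries (background 15.8%), and for CYC7 and COX5B all 3 were above the other 9 (background 18.3%). The 4 members whose values overlapped were QCR8, COX9, COX12 and ATP14. In the same comparison 6 of the 8 glucose exhaustion markers were called lower and none higher.

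**Figure D1:**
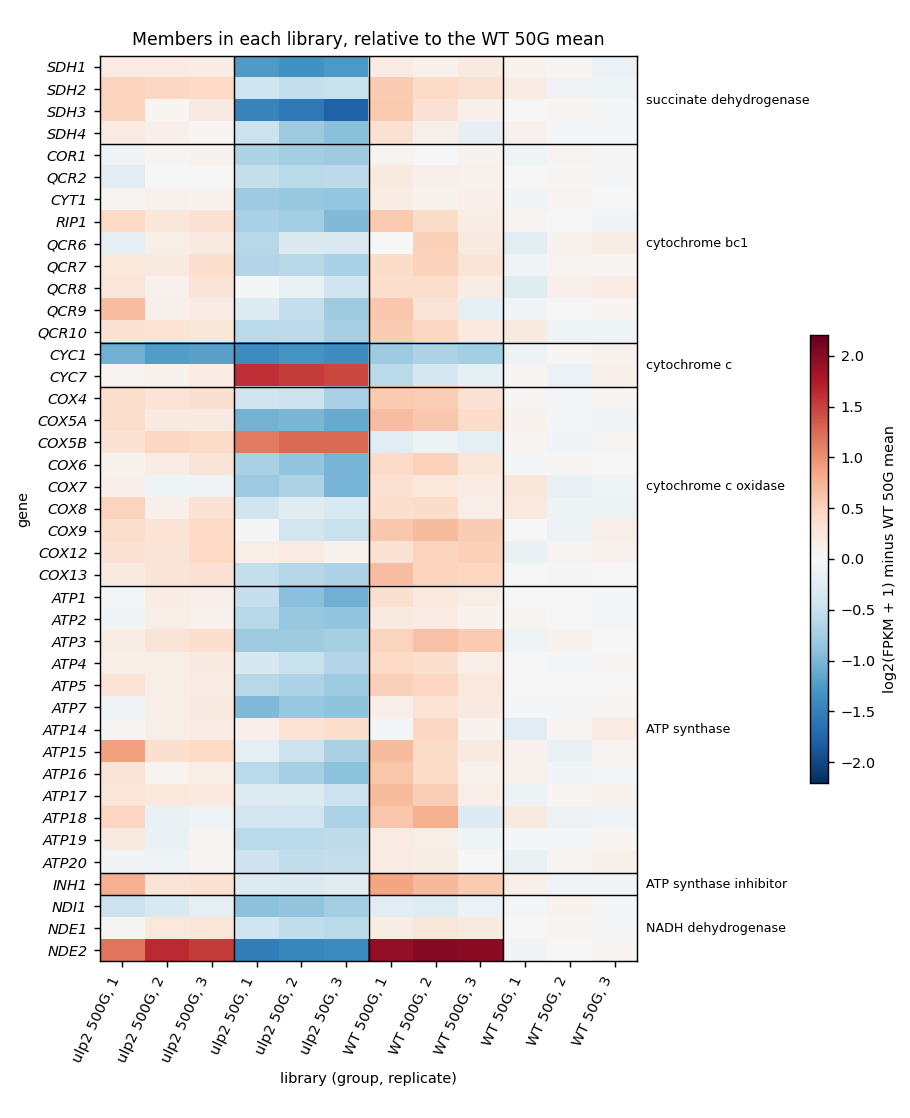
Each row is one of the 41 genes, grouped by complex, and each column one of the 12 libraries. Color gives log2(FPKM + 1) minus the mean of the 3 WT 50G libraries; the ulp2 50G columns are low in nearly every row except CYC7 and COX5B, and NDE2 is high in the WT 500G and ulp2 500G columns.

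Succinate dehydrogenase, which oxidizes succinate and feeds electrons to ubiquinone, fell in all 4 of its genes. SDH3 (YKL141W), a membrane anchor subunit, had 1162, 1082 and 943 FPKM in ulp2 50G libraries, against 3192, 3341 and 3141 FPKM in WT 50G libraries. The groups lay far apart, and the log2 fold change of -1.61 (standard error 0.14, limma adjusted p = 7.59e-06) put SDH3 at 0.329 times its WT level, the lowest ratio among the 41 genes. SDH1 (YKL148C), the flavoprotein subunit, had 725, 683 and 718 FPKM in ulp2 50G, against 1829, 1777 and 1581 FPKM in WT 50G libraries, a log2 fold change of -1.28 (standard error 0.07, limma adjusted p = 4.09e-07). SDH2 (YLL041C), the iron-sulfur subunit, changed less, with 1201, 1130.2 and 1159.6 FPKM in ulp2 50G and 1828, 1547 and 1532 FPKM in WT 50G libraries (log2 fold change -0.49, standard error 0.08). Unlike the other 3 genes of the complex, SDH2 lies on chromosome XII. SDH4, the second anchor subunit, changed by -0.73.

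In the cytochrome bc1 complex, which passes electrons from ubiquinone to cytochrome c, 6 of 9 genes were called lower in ulp2 50G cells and none higher. The called genes were the catalytic subunit genes CYT1 (cytochrome c1, -0.83 on the log2 scale) and RIP1 (the Rieske iron-sulfur protein, -0.81), the core protein genes COR1 (-0.75) and QCR2 (-0.57), and the small subunit genes QCR7 (-0.66) and QCR10 (-0.63). QCR6, QCR8 and QCR9 had values of -0.41, -0.20 and -0.53 and did not pass the threshold. The members left uncalled in this comparison, 9 over all complexes, were short: their coding length had a median of 252 bases (180 to 444), against 536 bases (183 to 1923) for the 32 called members. Their standard errors had a median of 0.14 on the log2 scale, against 0.09 for the called members.

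The cytochrome c genes moved in opposite directions. CYC1 (YJR048W), the main form in aerobic cells, had 459.7, 484 and 468 FPKM in ulp2 50G libraries, against 1112, 1221 and 1289.6 FPKM in WT 50G libraries. CYC7 (YEL039C) had 349, 331 and 318 FPKM in ulp2 50G libraries, against 115, 104 and 123 FPKM in WT 50G libraries. The groups did not overlap for either gene, and the log2 fold changes were -1.36 for CYC1 (standard error 0.07, limma adjusted p = 5.40e-07) and 1.54 for CYC7 (standard error 0.10, limma adjusted p = 1.41e-06).

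Cytochrome c oxidase showed the same split between paralogs. COX5A (YNL052W), the aerobic form of subunit Va, had 968, 987 and 928 FPKM in ulp2 50G libraries, against 2107, 1954 and 1920.4 FPKM in WT 50G libraries, a log2 fold change of -1.05 (standard error 0.08, limma adjusted p = 5.43e-06). COX5B (YIL111W), which encodes the low-oxygen form Vb, had 179, 193 and 192 FPKM in ulp2 50G libraries, against 83.1, 77.0 and 82.0 FPKM in WT 50G libraries, a log2 fold change of 1.21 (standard error 0.07, limma adjusted p = 5.31e-07). Of the other 7 genes of the enzyme, COX4 (-0.53), COX6 (-0.86), COX7 (-0.83), COX8 (-0.35) and COX13 (-0.61) were called lower. COX9 (-0.31) and COX12 (0.13) were not called. COX8 (YLR395C) was close to the threshold, with 2126, 2382 and 2266 FPKM in ulp2 50G and 3342, 2668 and 2646 FPKM in WT 50G libraries (limma adjusted p = 0.0444), and the adjusted p was over 0.05 under both other scalings between libraries.

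For ATP synthase, 10 of 13 genes were called lower in ulp2 50G cells and none higher. The catalytic core genes ATP1 and ATP2, encoding subunits alpha and beta, changed by -0.83 and -0.77 on the log2 scale, ATP7 of the stator stalk by -0.89, and ATP17, of the membrane part, by -0.35. ATP3 (YBR039W), the central stalk subunit gamma, had 703, 711 and 736 FPKM in ulp2 50G libraries, against 1145, 1290.3 and 1235 FPKM in WT 50G libraries, a log2 fold change of -0.77. ATP14, ATP15 and ATP18 were not called, with values of 0.26, -0.46 and -0.51. INH1 (YDL181W), whose protein blocks ATP hydrolysis by the enzyme, had 1176, 1154 and 1196 FPKM in ulp2 50G and 1563, 1386 and 1394 FPKM in WT 50G libraries. The INH1 groups did not overlap, but its change of -0.30 did not pass the threshold (limma adjusted p = 0.0838, and 0.0147 without the first ulp2 500G library, which enters only through the shared spread).

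All 3 NADH dehydrogenase genes were called lower. NDE2 (YDL085W), one of the pair of external enzymes, had 125, 132 and 137 FPKM in ulp2 50G libraries, against 348, 365 and 369 FPKM in WT 50G libraries, a log2 fold change of -1.45 (standard error 0.10, limma adjusted p = 3.07e-06). Its partner NDE1 (YMR145C) had 393, 366 and 352 FPKM in ulp2 50G and 531, 548 and 522 FPKM in WT 50G libraries, a smaller change of -0.53 (standard error 0.08). NDI1 (YML120C), the internal enzyme, had 266, 270.4 and 289 FPKM in ulp2 50G and 479.8, 519 and 486 FPKM in WT 50G libraries, a change of -0.85 (standard error 0.08).

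The 4 members on chromosome XII had higher values than most of the set in this comparison. By the study's description, ulp2 null cells carry extra copies of chromosomes I and XII early on and lose them later, and the part of copy number in these values was not tested. In ulp2 50G relative to WT 50G libraries, the other 514 tested genes of chromosome XII had a median log2 change of 0.69, against -0.06 for 5351 genes on chromosomes other than I and XII. No member lies on chromosome I. COX12 (YLR038C), a small subunit of cytochrome c oxidase, had 2492, 2596 and 2396 FPKM in ulp2 50G libraries, against 2054, 2379 and 2433 FPKM in WT 50G libraries, and ATP14 (YLR295C), of the ATP synthase stalk, had 1384, 1581 and 1659.8 FPKM against 1079, 1344 and 1460.4 FPKM in WT 50G libraries. The groups overlapped for both genes. With SDH2 and COX8, the 4 genes had a median log2 change of -0.11, while the 37 members elsewhere had a median of -0.66. Set against the median of the other genes on its own chromosome, each of the 4 was lower, by -1.18 for SDH2, -1.04 for COX8, -0.56 for COX12 and -0.43 for ATP14. On that scale the median was -0.80 for these 4 genes and -0.58 for the other 37, with 39 of the 41 members below their chromosome's median.

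**Figure D2:**
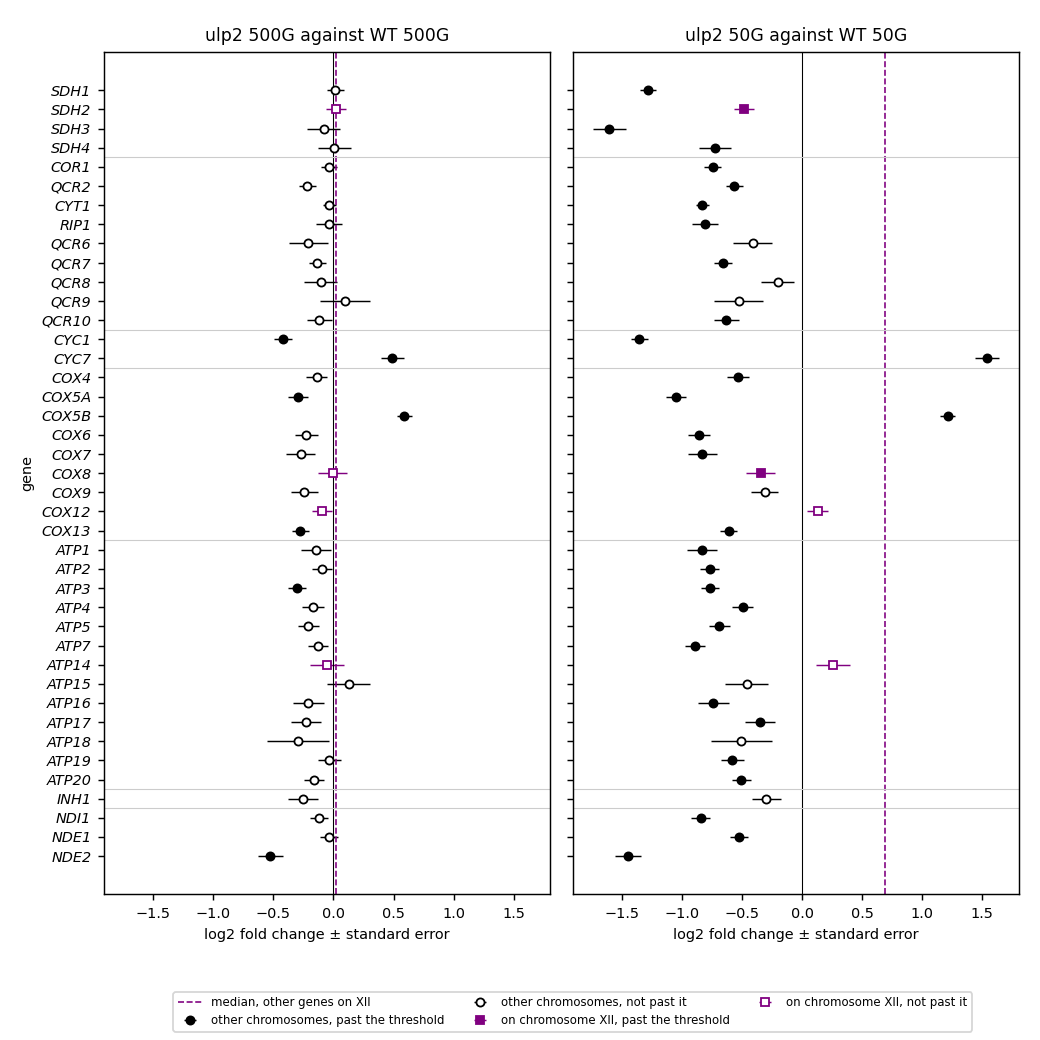
Points show the log2 fold change of each gene between ulp2 null and WT cells at 500 generations (left) and at 50 generations (right), with the standard error of the fit as a bar. Filled points passed the adjusted p of 0.05; squares mark the 4 genes on chromosome XII, and the dashed line is the median of the other genes on that chromosome, 0.69 at 50 generations and 0.02 at 500 generations.

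At 500 generations the strains lay much closer. Compared with WT 500G cells, 5 of the 41 genes were called lower in ulp2 500G cells (background 6.06%) and 2 were called higher (background 4.90%). The members' median log2 change was -0.13, against -0.03 over all tested genes, and the other chromosome XII genes had a median of 0.02. The set made up 6.38% ± 0.24 of the summed FPKM in ulp2 500G libraries and 6.66% ± 0.22 in WT 500G libraries (SD, n = 3 each). The 7 called genes were CYC1, COX5A, COX13, ATP3 and NDE2, which were lower, and CYC7 and COX5B, which were higher. No gene of succinate dehydrogenase or of the cytochrome bc1 complex was called. Of the 8 glucose exhaustion markers, 3 were called lower in ulp2 500G cells and none higher.

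The paralog genes of cytochrome c and cytochrome c oxidase still differed at 500 generations. COX5B had 101, 111 and 108 FPKM in ulp2 500G libraries, against 67.3, 74.5 and 70.2 FPKM in WT 500G libraries (log2 fold change 0.59, standard error 0.07, limma adjusted p = 0.000375). CYC7 had 119, 119.5 and 127 FPKM in ulp2 500G libraries, against 74.7, 87.5 and 98.2 FPKM in WT 500G libraries (log2 fold change 0.49, limma adjusted p = 0.0112). CYC1 had 581, 513 and 523 FPKM in ulp2 500G libraries, against 692, 755 and 717 FPKM in WT 500G libraries (log2 fold change -0.42, limma adjusted p = 0.00599). For all 3 genes the groups did not overlap. COX5A had 2618, 2282 and 2291 FPKM in ulp2 500G libraries, against 3185, 3005 and 2638 FPKM in WT 500G libraries, and only just passed (log2 fold change -0.29, limma adjusted p = 0.0497). That call was lost in 10 of the 12 fits that left out a library and under both other scalings.

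NDE2 had 813, 1132 and 1046 FPKM in ulp2 500G libraries, against 1380.0, 1455 and 1435 FPKM in WT 500G libraries (log2 fold change -0.53, limma adjusted p = 0.0111). ATP3 had 1362, 1486 and 1572 FPKM in ulp2 500G libraries, against 1724, 1911 and 1812 FPKM in WT 500G libraries (log2 fold change -0.30, limma adjusted p = 0.0262). Every ulp2 500G library was below every WT 500G library for both genes. Fitted on these 6 libraries alone, 1 member stayed called higher (background 0.852% in that fit) and 0 lower (background 1.17%) in limma. Over all tested genes the fit with all libraries had called 4.90% higher and 6.06% lower. In the limma fit on the 6 libraries the adjusted p was 0.054 for CYC1, 0.0843 for CYC7, 0.108 for NDE2, 0.118 for ATP3 and 0.193 for COX5A. The ATP3 call was also lost when ulp2 500G replicate 1 or 2 or WT 500G replicate 2 or 3 was left out (limma adjusted p between 0.0546 and 0.092). On the equal-sum scale the limma adjusted p was 0.229 for ATP3 and 0.0662 for NDE2.

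Other members named above did not pass the threshold between the strains at this stage. SDH1 had 1958, 1949.8 and 1935 FPKM in ulp2 500G and 1961, 1834 and 1983 FPKM in WT 500G libraries (log2 fold change 0.02, standard error 0.07). SDH3 had 4528, 3339 and 3710.4 FPKM in ulp2 500G and 4786, 4003 and 3474 FPKM in WT 500G libraries (log2 fold change -0.08, standard error 0.14). SDH2 had 2287, 2237 and 2207 FPKM in ulp2 500G and 2414, 2182 and 2059 FPKM in WT 500G libraries (log2 fold change 0.02, standard error 0.08). The ranges of the 2 strains overlapped for all 3 genes. On chromosome XII, COX8 had 4005, 3083 and 3579 FPKM in ulp2 500G and 3692, 3818 and 3188 FPKM in WT 500G libraries. COX12 had 2859, 2784 and 3087 FPKM in ulp2 500G and 2837, 3224 and 3272 FPKM in WT 500G libraries. ATP14 had 1300.2, 1403 and 1454 FPKM in ulp2 500G and 1251, 1757 and 1350.4 FPKM in WT 500G libraries. These 3 genes overlapped as well, with log2 fold changes of -0.01, -0.09 and -0.05. INH1 had 2478, 1755 and 1828 FPKM in ulp2 500G and 2629, 2371 and 2161 FPKM in WT 500G libraries, and its change of -0.25 did not pass the threshold with all libraries but did without the first ulp2 500G library, the highest of its group (limma adjusted p = 0.0232). COX9 (YDL067C), a small subunit of cytochrome c oxidase, had 2960.1, 2779 and 3044 FPKM in ulp2 500G and 3392, 3669 and 3331 FPKM in WT 500G libraries. NDI1 had 357, 394 and 427 FPKM in ulp2 500G and 414, 411 and 454 FPKM in WT 500G libraries. NDE1 had 542, 628 and 643 FPKM in ulp2 500G and 599.9, 643 and 609.7 FPKM in WT 500G libraries. The COX9 groups did not overlap, the NDI1 and NDE1 groups did, and none of these 3 genes was called.

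In WT cells, the set lay above the median of all genes after passaging. Compared with WT 50G cells, 18 genes were called higher in WT 500G cells (background 21.4%) and 4 lower (background 19.2%). The members' median log2 change was 0.32, against 0.01 over all tested genes. Scaled to an equal sum over all genes but those of ribosomal proteins, the counts became 4 higher (background 5.01% on that scale) and 11 lower (background 49.0%) and the members' median -0.06, while the median of all tested genes moved to -0.34. The members' median thus lay 0.31 above that of all genes as deposited and 0.29 above it on the equal-sum scale, and the set's share of the summed FPKM was 6.66% ± 0.22 in WT 500G and 6.76% ± 0.24 in WT 50G libraries (SD, n = 3 each).

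NDE2 changed most in WT cells, by 1.98 on the log2 scale (standard error 0.10, limma adjusted p = 3.17e-07), with every WT 500G library over 3 times the level of any WT 50G library. INH1 rose by 0.72 (limma adjusted p = 0.00106), and each of its WT 500G libraries was above each WT 50G library. COX9 had 3392, 3669 and 3331 FPKM in WT 500G and 2261, 2068 and 2460.0 FPKM in WT 50G libraries, a change of 0.62 (limma adjusted p = 0.0015, and 0.0649 on the equal-sum scale). CYC1 fell by 0.74 (limma adjusted p = 3.29e-05), CYC7 by 0.39 and COX5B by 0.19, and CYC1 thus went against COX5A, which rose by 0.56. COX5B was close to the threshold (limma adjusted p = 0.0397). Its call was lost with only the 2 groups in the fit (limma adjusted p = 0.0661) and in some fits that left out a library (limma adjusted p up to 0.11). NDI1 fell by 0.22 and NDE1 rose by 0.21, both close to the threshold (limma adjusted p = 0.0465 and 0.0478), and NDE1 was at -0.16 on the equal-sum scale, above the median of all genes there. Their calls were lost in several fits that left out a library (limma adjusted p up to 0.144 for NDI1 and 0.141 for NDE1). Of the glucose exhaustion markers, 6 of 8 were called higher in WT 500G cells (background 21.4%).

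In ulp2 null cells nearly the whole set was higher after passaging. Compared with ulp2 50G cells, 37 of the 41 genes were called higher in ulp2 500G cells (background 24.5%) and 2 lower (background 29.7%), with a median log2 change of 0.83 against -0.05 over all tested genes. CYC7 and COX5B were the genes that fell, by 1.44 and 0.81 on the log2 scale, and ATP14 and ATP18 were not called, at -0.15 and 0.58. The comparison uses the same ulp2 50G libraries as the strain comparison at 50 generations, and the values of those libraries thus enter both. NDE2 rose by 2.90 (standard error 0.10, limma adjusted p = 9.10e-09), SDH3 by 1.85, SDH1 by 1.46 and COX5A by 1.32. CYC1 rose by only 0.19 (limma adjusted p = 0.0474) and COX12 by 0.22 (limma adjusted p = 0.0469), and on the equal-sum scale, where the median of all tested genes was -0.41, they were at -0.18 and -0.16. Both calls were lost in several fits that left out a library (limma adjusted p up to 0.141 for CYC1 and 0.152 for COX12). The mean CYC1 level was 539 ± 36.8 FPKM in ulp2 500G and 471 ± 12.6 FPKM in ulp2 50G cells, against 721 ± 31.7 FPKM in WT 500G and 1208 ± 89.4 FPKM in WT 50G cells (SD, n = 3 each), so no passaged group was near the WT 50G level. All 8 glucose exhaustion markers were called higher in ulp2 500G than in ulp2 50G cells.

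The change over passaging differed between the strains for most members. The interaction, the change in ulp2 null cells minus that in WT cells, was above 0 and past the threshold for 25 genes (background 9.74%) and below 0 and past it for 2 (background 13.0%), CYC7 and COX5B. Its median was 0.51 over the members and -0.02 over all tested genes, and it was 0.51 on the equal-sum scale too. Values were largest for SDH3 (1.52, standard error 0.19, limma adjusted p = 0.000337) and SDH1 (1.30, limma adjusted p = 1.90e-05). They were -1.05 for CYC7 (limma adjusted p = 0.000449) and -0.62 for COX5B (limma adjusted p = 0.000895). All 4 genes of succinate dehydrogenase, 6 of 9 of the cytochrome bc1 complex, 5 of 9 of cytochrome c oxidase, 6 of 13 of ATP synthase and all 3 NADH dehydrogenase genes were past the threshold above 0. NDE2, with 0.92, rose in both strains and more in ulp2 null cells, while INH1 and COX9 had interactions of 0.04 (standard error 0.18) and 0.07 (standard error 0.16) that did not pass.

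**Figure D3:**
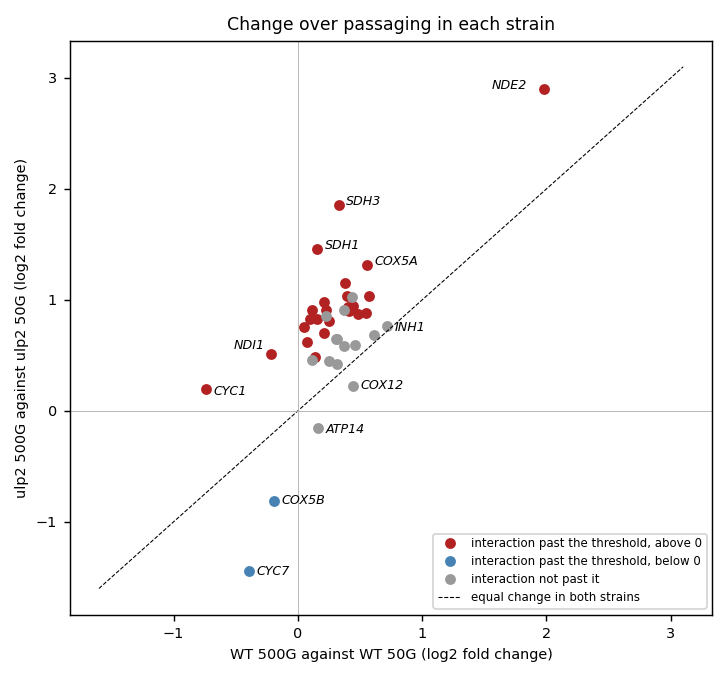
Each point is one of the 41 genes, with its log2 fold change over passaging in WT cells on the x axis and in ulp2 null cells on the y axis; both axes rest on one limma fit. Red and blue mark interactions past the threshold above and below 0, and most genes lie above the dashed line of equal change, with CYC7 and COX5B below it.

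Because the ratio of 2 genes within a library does not depend on the scaling between libraries, the paralog pairs were also compared as shares of their summed FPKM. CYC7 made up 16.98%, 18.9% and 19.5% of the CYC7 and CYC1 sum in ulp2 500G and 43.1%, 40.6% and 40.5% in ulp2 50G libraries, against 9.75%, 10.4% and 12.05% in WT 500G and 9.40%, 7.84% and 8.68% in WT 50G libraries. The cytochrome c transcripts were thus most evenly divided in ulp2 50G cells, and the ulp2 500G share stayed above that of both WT groups. COX5B made up 3.73%, 4.64% and 4.52% of the COX5B and COX5A sum in ulp2 500G and 15.6%, 16.4% and 17.2% in ulp2 50G libraries, against 2.07%, 2.42% and 2.59% in WT 500G and 3.79%, 3.79% and 4.09% in WT 50G libraries. NDE2 made up 60.0%, 64.3% and 61.9% of the NDE2 and NDE1 sum in ulp2 500G and 24.2%, 26.5% and 28.0% in ulp2 50G libraries, against 69.7%, 69.4% and 70.2% in WT 500G and 39.6%, 39.9% and 41.4% in WT 50G libraries, so the more abundant external NADH dehydrogenase transcript was NDE2 at 500 generations and NDE1 at 50 generations in both strains.

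The mean log2 ratio of CYC7 to CYC1 was -0.50 in ulp2 50G and -3.39 in WT 50G libraries, a difference of 2.89, and that of COX5B to COX5A was -2.35 in ulp2 50G and -4.61 in WT 50G libraries, a difference of 2.26. For NDE2 to NDE1 the difference was -0.92. At 500 generations the differences between ulp2 null and WT libraries were 0.91, 0.89 and -0.49 for the 3 pairs. In all 12 comparisons of these ratios between strains at one passage or passages in one strain, the 3 libraries of one group lay entirely apart from the 3 of the other, and p was 0.1 in each by an exact permutation test over libraries, two-sided, which is the limit for 3 libraries a group (0.1 also after Benjamini-Hochberg adjustment over the 12).

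**Figure D4:**
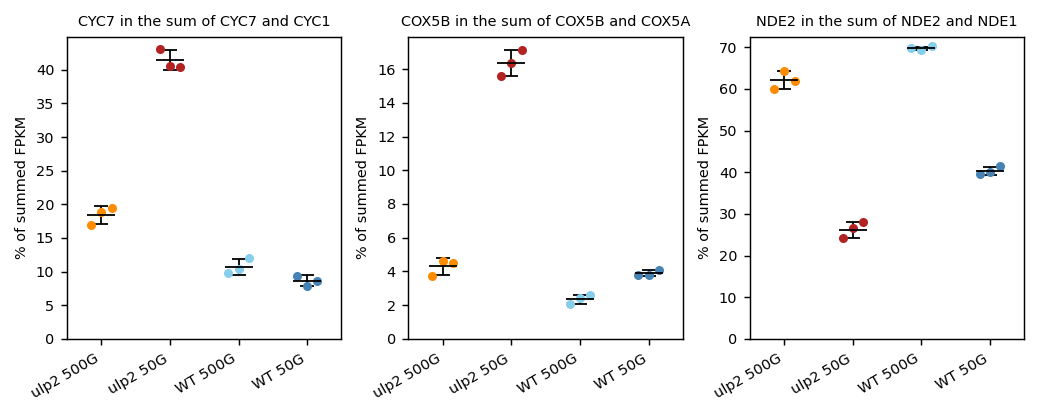
Points give, for each library, the percentage of the summed FPKM of a gene pair that came from CYC7, COX5B or NDE2, with the mean and SD of the 3 libraries as a bar. The ulp2 50G libraries are highest for CYC7 and COX5B and lowest for NDE2.

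The sequences before the start codons were searched for the CCAAT core of Hap2/3/4/5 elements, for its longer form TNATTGGT, which always contains the core on the other strand, and for ATTGTT, the core bound by the hypoxic repressor Rox1. Windows of 300 bases were read from the R64 genome, both strands were searched, and the core CCAAT was found before 35 of the 41 members (85.4%) and before 2510 of 6007 nuclear genes (41.8%). TNATTGGT was found before 16 members (39.0%) and 313 of all genes (5.21%), and ATTGTT before 18 members (43.9%) and 2048 of all genes (34.1%). Of the 30 members lower in ulp2 50G cells, 25 had a CCAAT core and 13 had ATTGTT, and of the 9 not called, 9 and 4 did. A match is a description of the window and not evidence of a bound factor. The 6 members without a CCAAT core were COR1, COX4, CYT1, CYC1, CYC7 and NDE2.

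Windows are shown 5′ to 3′ on the coding strand for SDH3, which had the lowest ratio between ulp2 50G and WT 50G cells, for RIP1, a member with the longer motif, and for the COX5A and COX5B pair, which moved in opposite directions. In the R64 assembly they lie on the plus strand at chrXI:179367-179666, chrV:106960-107259, chrXIV:531425-531724 and chrIX:154922-155221, and each ends just before the start codon. Capitals mark every match to the motifs searched, in either orientation.
SDH3: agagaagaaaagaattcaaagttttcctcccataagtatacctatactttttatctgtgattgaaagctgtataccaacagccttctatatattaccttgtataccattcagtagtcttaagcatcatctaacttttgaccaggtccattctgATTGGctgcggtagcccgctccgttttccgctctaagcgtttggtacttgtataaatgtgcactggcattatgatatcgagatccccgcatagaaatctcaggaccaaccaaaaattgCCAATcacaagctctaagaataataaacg
RIP1: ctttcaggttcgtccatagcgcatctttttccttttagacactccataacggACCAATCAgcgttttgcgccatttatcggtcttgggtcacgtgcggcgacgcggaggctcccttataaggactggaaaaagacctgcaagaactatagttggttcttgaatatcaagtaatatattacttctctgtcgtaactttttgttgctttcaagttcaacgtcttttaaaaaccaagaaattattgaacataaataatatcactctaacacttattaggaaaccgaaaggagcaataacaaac
COX5A: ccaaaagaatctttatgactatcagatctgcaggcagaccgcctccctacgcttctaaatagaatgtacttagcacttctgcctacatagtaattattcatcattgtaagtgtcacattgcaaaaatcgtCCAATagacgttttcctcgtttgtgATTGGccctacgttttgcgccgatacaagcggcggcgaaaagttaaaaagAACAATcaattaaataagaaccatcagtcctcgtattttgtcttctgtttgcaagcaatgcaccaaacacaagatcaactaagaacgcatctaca
COX5B: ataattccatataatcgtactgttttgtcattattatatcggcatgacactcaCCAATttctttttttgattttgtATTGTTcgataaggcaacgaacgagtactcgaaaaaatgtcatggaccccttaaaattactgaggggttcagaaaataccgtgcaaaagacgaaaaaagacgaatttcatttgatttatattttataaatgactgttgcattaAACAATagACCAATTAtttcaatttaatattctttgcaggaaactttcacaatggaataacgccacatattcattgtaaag

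The CCAAT cores of SDH3 lie 147 to 143 and 29 to 25 bases before the start codon, and those of COX5A 170 to 166 and 145 to 141 bases before it. The RIP1 window holds a single longer motif, 248 to 241 bases before the start codon. COX5B has the longer motif 73 to 66 bases before its start codon and a further CCAAT core, and 2 matches to ATTGTT, one of them ending 76 bases before the start codon, while COX5A has 1. CYC1 and CYC7, the other pair that split, had none of the motifs in their windows.

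Genes around the chain, listed from textbook knowledge, gave a background for these values. Over all tested genes, 18.1% were called lower and 18.7% higher in ulp2 50G than in WT 50G cells. Between ulp2 null passages, 24.5% of all tested genes were called higher in ulp2 500G cells. Of 9 further subunit genes, paralogs and modulators, 8 were called lower in ulp2 50G than in WT 50G cells and none higher (median -0.68), among them COX26, a subunit of cytochrome c oxidase (-1.04), STF1, a second inhibitor of ATP synthase (-1.03), and SHH3, a paralog of SDH3 (-1.48), and all 9 were called higher in ulp2 500G than in ulp2 50G cells (median 1.24). Of 8 genes for carriers and other electron donors, 7 were called lower in ulp2 50G cells and none higher (median -0.65). These included GUT2, the mitochondrial glycerol 3-phosphate dehydrogenase (-1.18), and PET9, the main ADP/ATP carrier (-0.97). Of 8 heme synthesis genes 6 were called lower and none higher (median -0.42), and of 11 coenzyme Q synthesis genes 6 were called lower and 2 higher (median -0.25). The 2 higher ones, COQ9 and COQ11, lie on chromosome XII, and of the 9 on other chromosomes 6 were called lower and 0 higher. Among 73 genes of mitochondrial ribosomal proteins, 24 were called lower and 2 higher (median -0.20).

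Assembly factor genes of the complexes were called in both directions, as the tested genes were as a whole. Of 55 such genes, 14 were called lower in ulp2 50G than in WT 50G cells (background 18.1%) and 10 higher (background 18.7%). Their median was -0.15. All 7 on chromosomes I or XII were called higher, with a median of 0.60, among them CYC3 on chromosome I, the enzyme that attaches heme to cytochrome c (0.77), and MSS51 on chromosome XII, a translational activator of the COX1 mRNA (0.63). The tested genes of chromosome XII outside the respiratory set had a median of 0.69. Of the 48 on other chromosomes 14 were called lower and 3 higher, with a median of -0.18. Over passaging of WT cells, 20 of the 55 were called lower (background 19.2%) and 6 higher (background 21.4%), with a median of -0.23.

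Of 8 regulator genes, 1 was called lower in ulp2 50G than in WT 50G cells (background 18.1% of all tested genes) and 1 higher (background 18.7%). HAP4, the limiting activator subunit of the Hap complex, had 244 ± 9.24 FPKM in ulp2 50G and 324 ± 35.1 FPKM in WT 50G libraries (SD, n = 3 each), a log2 fold change of -0.40 that passed the threshold, and 345 ± 61.1 FPKM in ulp2 500G against 327 ± 22.1 FPKM in WT 500G libraries. HAP1, a heme-responsive activator encoded on chromosome XII, was the one called higher, at 0.42. ROX1 had 128 ± 12.6 FPKM in ulp2 50G and 143 ± 12.8 FPKM in WT 50G libraries (SD, n = 3 each) and was not called. Of 8 further genes induced at low oxygen, 5 were called higher in ulp2 50G than in WT 50G cells and 2 lower (median 0.67). One of the higher genes, HMG2 (0.70), lies on chromosome XII, and of the 7 on other chromosomes 4 were called higher and 2 lower (median 0.64). The cell wall gene TIR1 (1.18) and the translation factor gene ANB1 (0.85) were among the higher, while OLE1, the fatty acid desaturase (-1.02), and HEM13, also counted among the heme synthesis genes (-0.53), were the lower ones. The low-oxygen genes thus did not share one direction in these cells.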

How the data were processed

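The authors made strand-specific libraries, mapped reads to the Ensembl R64 genome with TopHat2 2.1.1, kept uniquely placed reads, and ran Cuffdiff of Cufflinks 2.2.1 (versions from the submitters' processing notes). They deposited 1 table of FPKM values with 12 columns, all used here. The methods name total RNA and the labels polyA RNA. Uniquely placed reads undercount stretches shared by related genes such as SDH1 and its paralog. The methods give only a mean depth over the libraries, not the depth of each, and ratios of low values showed no whole-read steps (at most 5.70% at one ratio in 66 library pairs).

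Values were tested as log2(FPKM + 1), which understates changes of low genes, keeping 6572 genes that averaged 1 FPKM or more. The tool was limma 3.58.1 (R 4.3.3; 4 group means, trended empirical Bayes, Benjamini-Hochberg over all genes, 0.05, two-sided). limma replaced Cuffdiff, which needs alignments. The code was tested on simulated data. Members and lists were chosen with earlier results of these data known. Members given by library were the 3 with the largest change in each direction and comparison whose library pairs all agreed, the 3 paralog pairs, the 4 chromosome XII genes and INH1. Alternatives were another pseudocount, filters, scalings, thresholds, fits, a replicate block and each library left out. Python 3.11.15, numpy 2.4.6, pandas 2.3.3 and matplotlib 3.10.9 did the rest.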

Additional observations from a re-analysis of the deposited data

Results flagged for a closer look

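For 11 of the genes described by library, the change over passaging differed between ulp2 null and WT cells in the interaction test of the limma fit. Over all tested genes, 9.74% passed above 0 and 13.0% below 0. Some of the 11, SDH3, SDH1, CYC1, CYC7 and COX5B, were chosen for the size of their interaction, so their number is only a description. The interaction, on the log2 scale, was 1.52 for SDH3, 1.30 for SDH1, 0.94 for CYC1, 0.92 for NDE2, 0.76 for COX5A, 0.72 for NDI1, 0.51 for SDH2, 0.49 for NDE1 and 0.47 for ATP3, each higher in ulp2 null cells, and it was -1.05 for CYC7 and -0.62 for COX5B. NDI1 and CYC1 fell in WT cells, by 0.22 and 0.74, and rose in ulp2 null cells, by 0.51 and 0.19. The NDI1 fall and the CYC1 rise were close to the threshold. Each call was lost in several fits that left out a library (limma adjusted p up to 0.144 and 0.141). On the equal-sum scale the ulp2 null changes were 0.13 for NDI1 (limma adjusted p = 0.306) and -0.18 for CYC1. The median of all tested genes was -0.41 there.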

How the results depend on the processing

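The counts at 50 generations kept within 1.5 times of 30 lower and 2 higher under every alternative run. Scaling to an equal sum over genes other than those of ribosomal proteins changed most elsewhere. Between WT passages it gave 4 genes higher and 11 lower (5.01% and 49.0% of all genes on that scale) and a members' median of -0.056, it left 1 gene lower in ulp2 500G against WT 500G cells (1.66% of all genes), and it put NDE1 between WT passages at -0.16 and CYC1 and COX12 between ulp2 null passages at -0.18 and -0.16, with medians over all genes of -0.34 and -0.41 there. With only the 2 groups compared in the fit, ulp2 500G against WT 500G cells had 1 gene higher and 0 lower (limma, 0.852% and 1.17% of all genes in that fit). At an adjusted p of 0.01 the same comparison had 1 higher and 1 lower, WT 500G against WT 50G cells had 2 lower, and the interaction had 16 above 0. The shares of all genes at that threshold are not given here.

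Leaving out each library in turn gave 2 to 6 genes lower for ulp2 500G against WT 500G cells. The same fits gave 2 to 4 genes lower and 14 to 22 higher between WT passages, 28 to 32 lower for ulp2 50G against WT 50G cells, and 33 to 37 higher between ulp2 null passages. Over all genes, 3.26% to 6.33% were lower for ulp2 500G against WT 500G cells in these fits. Between WT passages 14.5% to 21.1% were lower and 16.8% to 23.3% higher. For ulp2 50G against WT 50G cells 14.2% to 19.7% were lower, and between ulp2 null passages 21.3% to 25.5% were higher. Same-numbered replicates correlated by at most 0.16 and differently numbered ones by at most 0.15. With 3 libraries a group, such values cannot decide whether the numbers pair the libraries. With a replicate block, 35 genes were lower and 2 higher in ulp2 50G cells (24.2% and 22% of all genes in that fit). In the interaction 28 passed above 0 and 2 below (14.3% and 17.6% of all genes). Calls over all genes were thus also more frequent with the block than in the main fit. Between 2 groups of 3 libraries the standard error reached 0.26 for ATP18, and depth per library is not given in the sources used here.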
